A study of Mus musculus with 6 samples.

Results

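The small (40S) subunit of the cytosolic ribosome is made of the 18S ribosomal RNA and a set of proteins, most of which are named with the prefix Rps. The members described here were all gene symbols that consist of Rps and a number, with an optional a, x or y, together with Rpsa. The rule found 30 of 33006 genes in the count tables. It used symbols alone and no measured value, and it left out 3 further components of the subunit whose symbols differ (Rps3a1, Fau and Gnb2l1). The cells were primary pulmonary endothelial cells of C57BL/6 mice, grown to 80% confluence in an endothelial medium. The control group (3 libraries) received water for 6 hours and the H2O2 group (3 libraries) received 300 uM hydrogen peroxide for the same time. The labels name no transgene or knockout, do not give the age or sex of the mice, and do not say whether the libraries of a group came from separate cultures or animals, so p-values speak only of library-to-library spread, part or all of which may be technical.

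The 40S subunit binds the initiation factors and the initiator tRNA, scans the mRNA for the start codon and reads the codons. Its head and body meet at the decoding site, and the mRNA enters and leaves through channels between them. Ribosomal protein mRNAs begin with a 5′ terminal oligopyrimidine (TOP) sequence, a C followed by further pyrimidines, through which the kinase mTOR and the protein Larp1 control their translation and stability. In endothelial cells as in others, making ribosomes is among the most costly activities of the cell.

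The libraries held 22455388 to 27618679 gene counts, of which 232658 to 367332 fell on the 30 members. No pair of libraries of a group was the same within sampling noise: the chi-square divided by its degrees of freedom was 1.62 to 2.86 for most pairs, and 8.61 and 10.96 for H2O2 replicate 3 with its fellow replicates. The endothelial markers Pecam1, Cdh5, Tie1, Kdr, Tek, Emcn, Plvap and Erg summed to 4977 to 5117 CPM in controls and 5327 to 5444 CPM with H2O2. CPM are a gene's counts relative to the library's total, scaled with TMM factors. Of these 8 genes 4 rose, where 9.70% of all genes did, among them Emcn (0.24) and Plvap (0.17). Of 5 leukocyte, 5 epithelial and 6 fibroblast and mural markers, 7 were tested and 0 changed (0 also at an unadjusted p of 0.05, and 0 by DESeq2 and limma-voom). Over all genes 9.70% rose and 10.8% fell, so 0 of 7 is not far from those shares. Without H2O2 replicate 2, 1 fibroblast and mural marker was called lower. Cd3e, Sftpc and Scgb1a1 had 0 counts in all libraries, Ptprc had 1 count in all, and the lung fibroblast gene Dcn had 22.3 ± 0.802 CPM in controls against 22.3 ± 1.44 CPM in H2O2 libraries (SD, n = 3). The other genes of this kind that were tested were Cd68, also a lysosomal gene (159 ± 3.52 and 166 ± 3.75 CPM), and Krt18, Pdgfra, Pdgfrb, Col3a1 and Acta2, each under 5 CPM. Of 12 mitochondrially encoded genes tested 8 fell, where 10.8% of all genes did, led by the ribosomal RNAs mt-Rnr1 (-0.65) and mt-Rnr2 (-0.49). DESeq2 called 5 falls and limma-voom 8. Of the 12 genes 0 rose, where 9.70% of all genes did (0 also at an unadjusted p of 0.05 and by DESeq2 and limma-voom). The part of these shifts in the results for the 40S genes was not tested.

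All 30 members were higher with H2O2. The median log2 fold change was 0.39, a rise of 1.31-fold, against a median of -0.0041 over the 12924 genes tested. The smallest change was that of Rps4x (0.12) and the largest that of Rps14 (0.67). By the quasi-likelihood test of edgeR, with p-values adjusted by Benjamini-Hochberg over all genes, 30 members passed as higher, where 9.70% of all genes tested did. This test gave every adjusted p below. None was called lower, where 10.8% of all genes were (0 members were lower also at an unadjusted p of 0.05, and 0 by DESeq2 and limma-voom). For each of the 30 members the 3 H2O2 libraries lay above the 3 controls, an order found in 16.5% of all genes tested. In these bulk libraries a change in the share of some cells and a change in RNA per cell cannot be told apart.

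**Figure D1:**
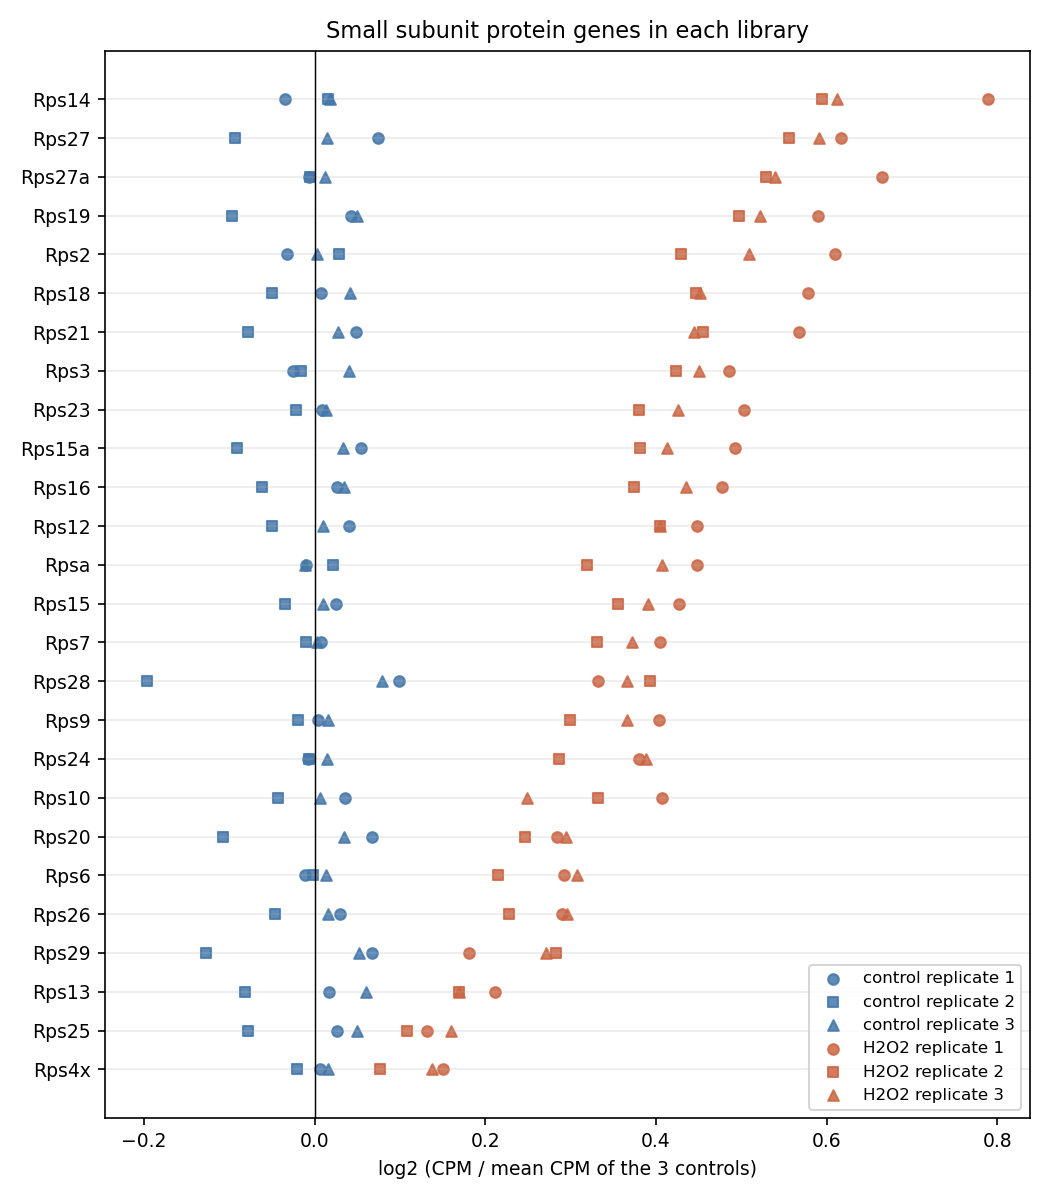
Each row is 1 of 26 of the small subunit protein genes, ordered by fold change, and each point is 1 library. The horizontal axis is the log2 of the CPM over the mean CPM of the 3 controls. H2O2 points (orange) lie to the right of control points (blue) in every row, from 0.67 for Rps14 down to 0.12 for Rps4x in the fitted log2 fold changes.

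Libraries of a group were not level across the members. Control replicate 2 was the lowest control for 23 of the 30 members, and H2O2 replicate 1 was the highest H2O2 library for 23 members while H2O2 replicate 2 was the lowest for 25. The median over members of the log2 ratio to the control mean was 0.02, -0.04 and 0.02 in the controls and 0.44, 0.36 and 0.40 in H2O2 replicates 1 to 3. The spread inside a group was thus far smaller than the distance between the groups. Together the 30 members took 1.04%, 1.00% and 1.04% of gene counts in the controls (1.03% ± 0.0219, SD, n = 3) and 1.38%, 1.30% and 1.35% with H2O2 (1.34% ± 0.0425, SD, n = 3).

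The rise was found in both structural parts of the subunit. The 14 members of the head had a median log2 fold change of 0.42 (0.13 to 0.58) and the 16 members of the body one of 0.38 (0.12 to 0.67). The 15 proteins with a bacterial counterpart (the uS families) had a median of 0.41 and the 15 found only in archaea or eukaryotes (the eS families) one of 0.37. These are descriptions of groups with wide overlap, and their difference was not tested.

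Among the head proteins the largest rise was that of Rps27a, whose product is ubiquitin fused to the ribosomal protein eS31. Control libraries held 221, 221 and 224 CPM and H2O2 libraries 353, 321 and 323 CPM. The controls were nearly identical and every H2O2 library was far above them. The log2 fold change was 0.58 (SE 0.0333, adjusted p = 1.4e-12). Rps19, the gene most often mutated in the inherited red cell aplasia Diamond-Blackfan anaemia, came next with 191, 174 and 192 CPM in controls and 280, 262 and 267 CPM with H2O2 (0.54, SE 0.0358, adjusted p = 2.0e-11). Rps18, which reaches from the head towards the large subunit, had 294, 283 and 301 CPM in controls and 437, 399 and 401 CPM with H2O2 (0.49, SE 0.0341, adjusted p = 4.0e-11). In both genes H2O2 replicate 1 was the highest library and the groups did not overlap.

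Rps3, at the mouth of the mRNA entry channel, rose by 0.45 (SE 0.0284, adjusted p = 6.8e-12). Further rises in the head included those of Rps16 (0.43), whose tail reaches the decoding site, Rps12 (0.42), Rps15 (0.39) and Rps28 (0.37). Rps28 had the widest standard error of the 30 (0.0477), with 156, 127 and 154 CPM in controls, where replicate 2 was low, and 184, 192 and 188 CPM with H2O2. Rps10, a head protein that is ubiquitinated on collided ribosomes, had 205, 194 and 200.4 CPM in controls and 265, 251 and 237 CPM with H2O2 (0.33, SE 0.0350, adjusted p = 8.3e-08), and H2O2 replicate 3 was its lowest treated library.

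Rps20, another protein ubiquitinated on collided ribosomes, rose by 0.28 (SE 0.0352, adjusted p = 1.8e-06). Rps29, a small zinc-binding protein, had 292, 255 and 289 CPM in controls and 316, 339 and 336 CPM with H2O2 (0.25, SE 0.0390, adjusted p = 3.8e-05). Its control replicate 2 lay well below the other controls, and H2O2 replicate 1, the highest treated library for most members, was its lowest treated one. Rps25, which many viral internal ribosome entry sites need, had the smallest change in the head, with 366, 340.2 and 372 CPM in controls and 393, 387 and 401 CPM with H2O2. The groups lay close without overlap, and the log2 fold change was 0.13 (SE 0.0319, adjusted p = 3.2e-03). Without control replicate 2 the call for Rps25 ended (0.10, adjusted p = 0.059, against 2.5e-03 to 0.012 without any 1 of the other libraries).

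In the body, the largest rise of the whole set was that of Rps14, a platform protein near the mRNA exit whose loss impairs red cell formation in a myelodysplastic syndrome. Control libraries held 228, 237 and 237 CPM and H2O2 libraries 404, 354 and 358 CPM. The H2O2 libraries were more spread than the controls, with replicate 1 highest, but the lowest of them was far above the highest control. The log2 fold change was 0.67 (SE 0.0382, adjusted p = 1.4e-12), a rise of 1.59-fold. Rps27, a zinc finger protein, had 111, 98.5 and 106 CPM in controls and 161, 155 and 158 CPM with H2O2 (0.59, SE 0.0378, adjusted p = 1.0e-11). Rps2, which lines the mRNA entry tunnel, had 895, 933 and 916 CPM in controls and 1396, 1232 and 1302 CPM with H2O2 (0.52, SE 0.0338, adjusted p = 1.3e-11). It was the gene with the most reads of the set.

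Rps21 was the body gene with the fewest reads, with 91.3, 83.6 and 90.0 CPM in controls and 131, 121 and 120.2 CPM with H2O2 (0.49, SE 0.0401, adjusted p = 8.9e-10). Its H2O2 libraries all exceeded the controls by more than the spread within either group. Rps23, a protein of the decoding centre, rose by 0.44, Rps15a by 0.43, Rpsa, also known as the laminin receptor precursor, by 0.39, Rps7, which binds the p53 ligase Mdm2, by 0.37 and Rps9 by 0.36, with standard errors of 0.0281 to 0.0363. Rps24 had 544, 545 and 553 CPM in controls and 712, 667 and 716 CPM with H2O2 (0.35, SE 0.0292, adjusted p = 1.1e-09). Its controls varied little and lay below all H2O2 libraries.

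Rps6, the substrate of the S6 kinases whose phosphorylation is the usual readout of mTOR activity, had 269, 271 and 274 CPM in controls and 332, 315 and 336 CPM with H2O2. This was a smaller rise than the median of the set (0.27, SE 0.0302, adjusted p = 1.8e-07). Rps26, which touches the mRNA ahead of the start codon, rose by the same amount (0.27, SE 0.0301). Rps13, which forms a bridge to the large subunit, had 208, 194 and 214 CPM in controls and 238, 231.1 and 231.0 CPM with H2O2 (0.18, SE 0.0333, adjusted p = 2.0e-04).

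Rps4x, the X-linked copy of a pair that in humans has a partner on the Y chromosome, changed least. Control libraries held 516, 507 and 519.9 CPM (514 ± 6.76, SD, n = 3) and H2O2 libraries 571, 543 and 566 CPM (559.8 ± 15.2, SD, n = 3). The groups did not overlap, and the rise of 8.83% passed the test (0.12, SE 0.0282, adjusted p = 2.4e-03).

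The rises differed in size. To describe this, each member's log2 CPM was set against the median member of the same library. Relative to that median, 6 members were higher in all H2O2 libraries than in all controls (Rps14, Rps27, Rps27a, Rps19, Rps18 and Rps21, with shifts of 0.09 to 0.27). The H2O2 libraries lay below all controls for 9 members (among them Rps10, Rps20, Rps6, Rps26, Rps29, Rps13, Rps25 and Rps4x, with shifts of -0.07 to -0.28). The other 15 overlapped. In plain CPM, the H2O2 libraries lay above all controls for 2129 of 12924 genes tested and below them for 2346. The shares of all genes on the relative scale were not computed. For the genes at the ends of the order, picked after their values were seen, the CPM of Rps14 over that of Rps4x was 0.442, 0.467 and 0.456 in controls and 0.708, 0.652 and 0.632 with H2O2. No test was made of these relative values, since the extremes of a ranked set must differ.

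**Figure D2:**
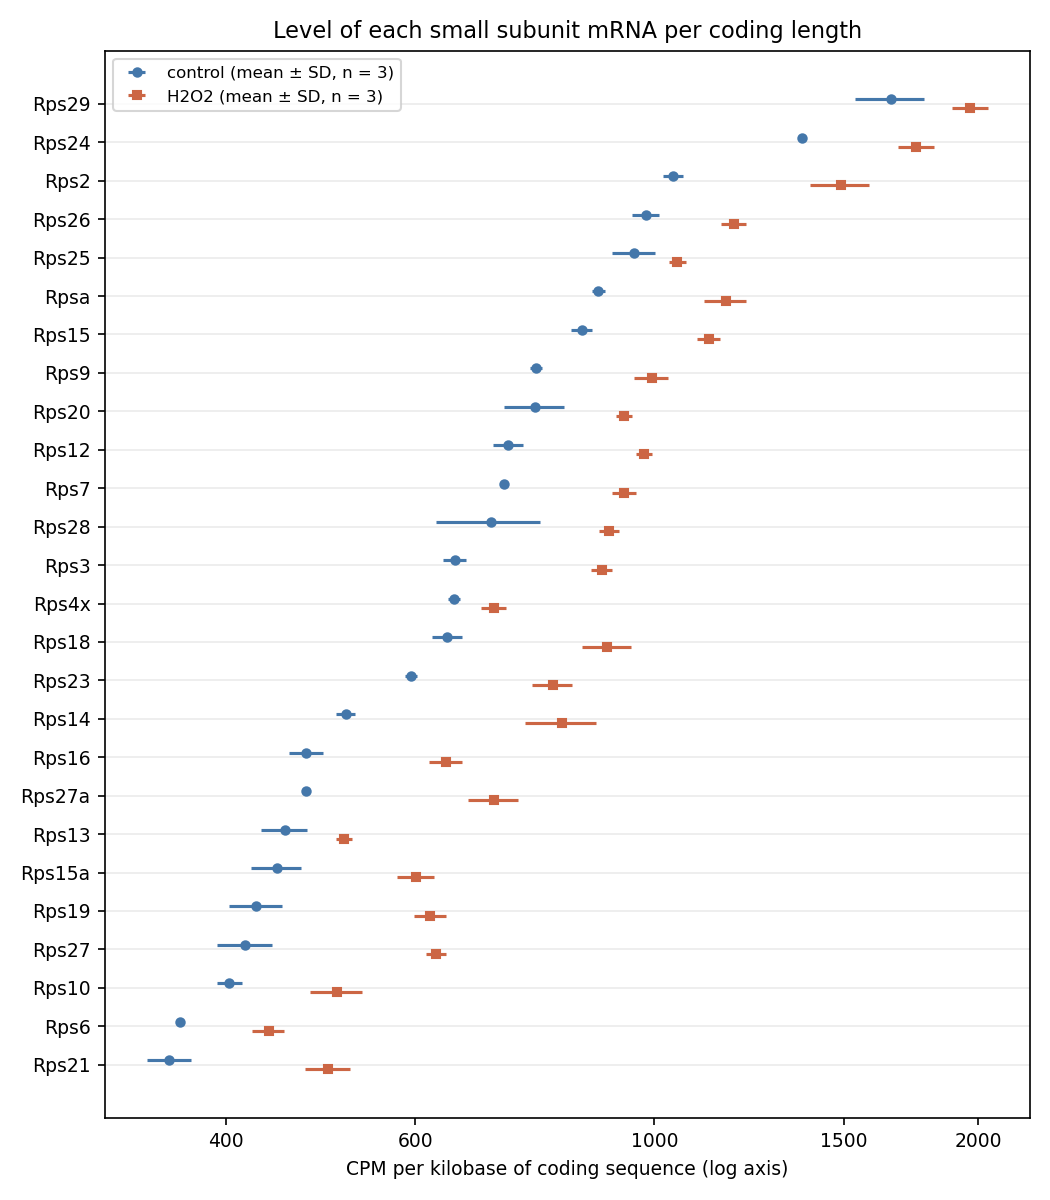
Each row is 1 of 26 small subunit genes, ordered by its level in controls, with CPM per kilobase of coding sequence on a log axis. Points are means over 3 libraries and bars are ± 1 SD for controls (blue circles) and H2O2 (orange squares). Levels run from 355 for Rps21 to 1657 for Rps29 in controls, and the H2O2 mean of each gene lies to the right of its control mean.

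Per kilobase of coding sequence, the level in controls ranged from 355 ± 16.5 CPM for Rps21 to 1657 ± 121 CPM for Rps29 (SD, n = 3). Rps24 (1372 ± 11.6) followed Rps29, and Rps6 (363 ± 3.06) and Rps10 (403 ± 11) stood next to Rps21 at the low end. Rps21 and Rps6 did not differ beyond their spread. With H2O2, Rps29 reached 1965 ± 75.3 and Rps24 1751 ± 68.3, and Rps6 (438 ± 15), Rps21 (498 ± 23.8) and Rps10 (507 ± 27.8) were lowest. Reads that align to more than 1 place were not counted. The share of 50-base windows of the mRNA that also occurs in another gene was 84.6% for Rps6 and 92.4% for Rps10. It was 26.4% for Rps21, 35.8% for Rps29 and 19.1% for Rps24. The part of this in the order of levels was not tested. Across the 30 members the fold change had a Spearman correlation of -0.38 with the control level per coding kilobase, or -0.25 once the fold change was corrected for transcript length and GC content. This is a description over genes of the same libraries, which share depth and have unequal untranslated regions. The control counts are also the denominator of the fold change, so their noise can push such a correlation below 0. The size of that push was not tested.

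The windows around the annotated starts show how unevenly the pyrimidine stretch of these mRNAs appears in the annotation. RefSeq promoters (GRCm38.p6, the assembly of mm10) were given for 22 of the 30 members. Below are 30 bases, 15 before and 15 after the annotated start, for 10 genes with values in every library above, coding strand, with the longest run of C and T that begins with C in capitals where it has at least 5 bases. The first 4 are the largest rises with an entry, the next 3 the smallest, and the last 3 members at the ends of the order of levels.
Rps27 (chr3:90213634-90213663, minus strand): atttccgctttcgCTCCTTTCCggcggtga
Rps19 (chr7:24884577-24884606, plus strand): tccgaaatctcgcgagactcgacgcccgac
Rps2 (chr17:24720048-24720077, plus strand): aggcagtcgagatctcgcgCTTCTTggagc
Rps18 (chr17:33955651-33955680, minus strand): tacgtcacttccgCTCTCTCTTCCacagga
Rps4x (chrX:102189377-102189406, minus strand): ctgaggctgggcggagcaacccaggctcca
Rps25 (chr9:44407699-44407728, plus strand): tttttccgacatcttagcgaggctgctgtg
Rps13 (chr7:116334176-116334205, minus strand): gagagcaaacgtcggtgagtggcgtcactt
Rps24 (chr14:24490663-24490692, plus strand): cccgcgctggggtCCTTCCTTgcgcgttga
Rps21 (chr2:180257364-180257393, plus strand): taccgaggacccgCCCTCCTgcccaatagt
Rps6 (chr4:86857353-86857382, minus strand): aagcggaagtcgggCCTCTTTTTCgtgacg

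In Rps27, Rps18, Rps24, Rps21 and Rps6 the capitals begin 1 or 2 bases before the annotated start. A run of at least 5 bases lay in this window in 14 of 22 members (63.6%) and in 36.4% of 27025 promoters, 1 per gene. From 25 bases before to 50 bases after the start, a run of at least 8 bases lay in 16 of 22 members (72.7%) and in 21.5% of all. The 14 members with the run in the 30-base window had a median log2 fold change of 0.42 (0.27 to 0.59) and the 8 without it one of 0.38 (0.12 to 0.54). The medians were 0.34 and 0.21 after correction for transcript length and GC content, and their difference was not tested. The 3 smallest changes among the 22, in Rps4x, Rps25 and Rps13, were in genes without it, and so was the rise of 0.54 in Rps19. From 25 bases before to 50 after the start, however, the longest run was 14 bases in Rps25 and 9 in Rps19. It was 6 bases in Rps13 and 5 in Rps4x. A start that the annotation places a few bases off moves the run out of the window, so no match says only that the letters are not there.

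The core of the site of GABPA and other ETS factors, CTTCCG on either strand, was found within 250 bases before to 50 bases after the start in 17 of 22 members (77.3%), against 17.2% of all promoters. Its CTTCC letters can also be part of a pyrimidine run. The YY1 core ATGGCGGC was found in 2 members (9.09%; 2.38% of all), the GC box GGGCGG in 11 of 22 (35.9% of all) and TATAAA in 2 (9.09%; 14.2% of all), each on either strand. Members with CTTCCG had a median log2 fold change of 0.39 and the 5 without it one of 0.36. With an offset for length and GC the order turned, to 0.30 and 0.36. A match is a description of the sequence and not of a factor bound there.

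The 9 members with an annotated small nucleolar RNA gene inside their bounds (among them Rps2, Rps3 and Rpsa) had a median of 0.39, and so had the 21 without. The members lie apart in the genome, with 9 on chromosome 7 (mm10, GENCODE M21). Their median was 0.43, from 0.18 for Rps13 at 116331505 to 116334195 to 0.54 for Rps19 at 24884371 to 24889806. Rps27a lies on chromosome 11 (29545846 to 29548109), Rps27 on chromosome 3 (90212522 to 90213651), Rps2 and Rps18 on chromosome 17, and Rps4x on chromosome X (102184941 to 102189394).

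Counting can affect single members. Ribosomal protein genes have many processed pseudogenes, and the counting set aside reads that align to more than 1 place. Such reads made up 11.6% ± 0.124 of the control reads and 11.1% ± 0.0502 of the H2O2 reads (SD, n = 3). Their part in the members' rise was not tested. On GENCODE M21 transcripts, the share of 50-base windows of a member's main mRNA that also occurs in another gene ran from 0% to 98.6% for Rps27, with a median of 53.6%. Its Spearman correlation with the fold change over the 30 members was 0.08. Rps3, with 2.96% of its windows shared, rose by 0.45, above the median of the set. That share is for 1 annotated transcript of 1908 bases, of which 729 are coding, and other transcripts were not tried. The deposited tables list 6 numbered 40S pseudogenes, with 66 to 111 counts in all per control library and 139 to 157 with H2O2, far below the members' counts. Of the 3 that were tested, Rps26-ps1 (1.04) and Rps10-ps1 (0.67) rose and Rps2-ps10 (0.61) did not pass, and DESeq2 called 0 of them. Without a stated strand setting, reads from the opposite strand cannot be told apart. Exons on that strand cover 24.8% of the exon bases of Rps25, and same-strand exons of another gene cover 20.6% of those of Rps10.

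**Figure D3:**
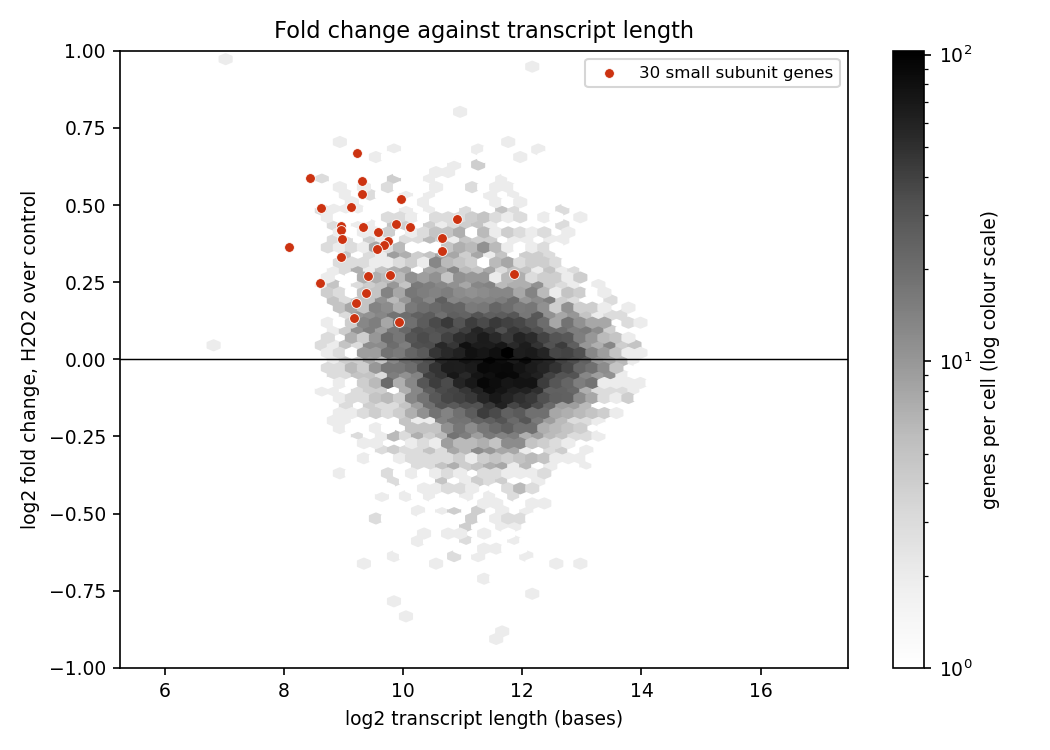
Tested genes are binned by log2 transcript length and log2 fold change (grey, darker for more genes on a log colour scale), with the 30 small subunit genes as red points and the vertical axis limited to 1 on either side of 0. The members sit among short transcripts, with 25 of 30 under 1000 bases. The median of these 25 is 0.39, above the 0.09 of genes outside the lists in that range. Rps4x (0.12) and Rps25 (0.13) lie close to the latter.

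The shortest mRNAs were shifted upward with H2O2. Among tested genes outside the lists, the median log2 fold change was 0.09 for 1044 genes with transcripts under 1000 bases, 0.02 for 2928 genes of 1000 to 2000 bases, -0.02 for 5103 genes of 2000 to 4000 bases and -0.01 for 3516 longer genes. Of the genes under 1000 bases 21.1% were called higher, against 12.5%, 6.04% and 7.20% in the longer bins in turn. The 25 members under 1000 bases had a median of 0.39. With a correction of each gene's expected count by its transcript length and GC content (the length offset), which brought the median of the short genes to -0.01, the members' median was 0.30, and 27 of 30 were called higher, where 9.11% of all genes were. The values of 8 members moved by more than 1.5 times, among them Rps15 (0.23), Rps28 (0.18), Rps10 (0.18), Rps29 (0.09), Rps4x (0.07), Rps13 (0.07) and Rps25 (0.05). Of these, Rps29 (adjusted p = 0.080), Rps13 (0.095) and Rps25 (0.27) did not pass with the offset. Rps14 (0.54), Rps27a (0.49) and Rps3 (0.47) were then the largest rises, and all 30 values stayed above 0. The offset rests on 1 annotated transcript per gene. Those of Rps3 (1908 bases, 729 coding), Rps24 (1613, 399) and Rps20 (3706, 357) are long for their coding length. With the offset these genes moved little, from 0.45 to 0.47, 0.35 to 0.36 and 0.28 to 0.26. The members' order with the offset, and the correlation below, thus depend on the transcript chosen. Other choices were not tested. Within the set, transcript length and fold change had a Spearman correlation of -0.12, which turned to 0.22 with the offset.

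**Figure D4:**
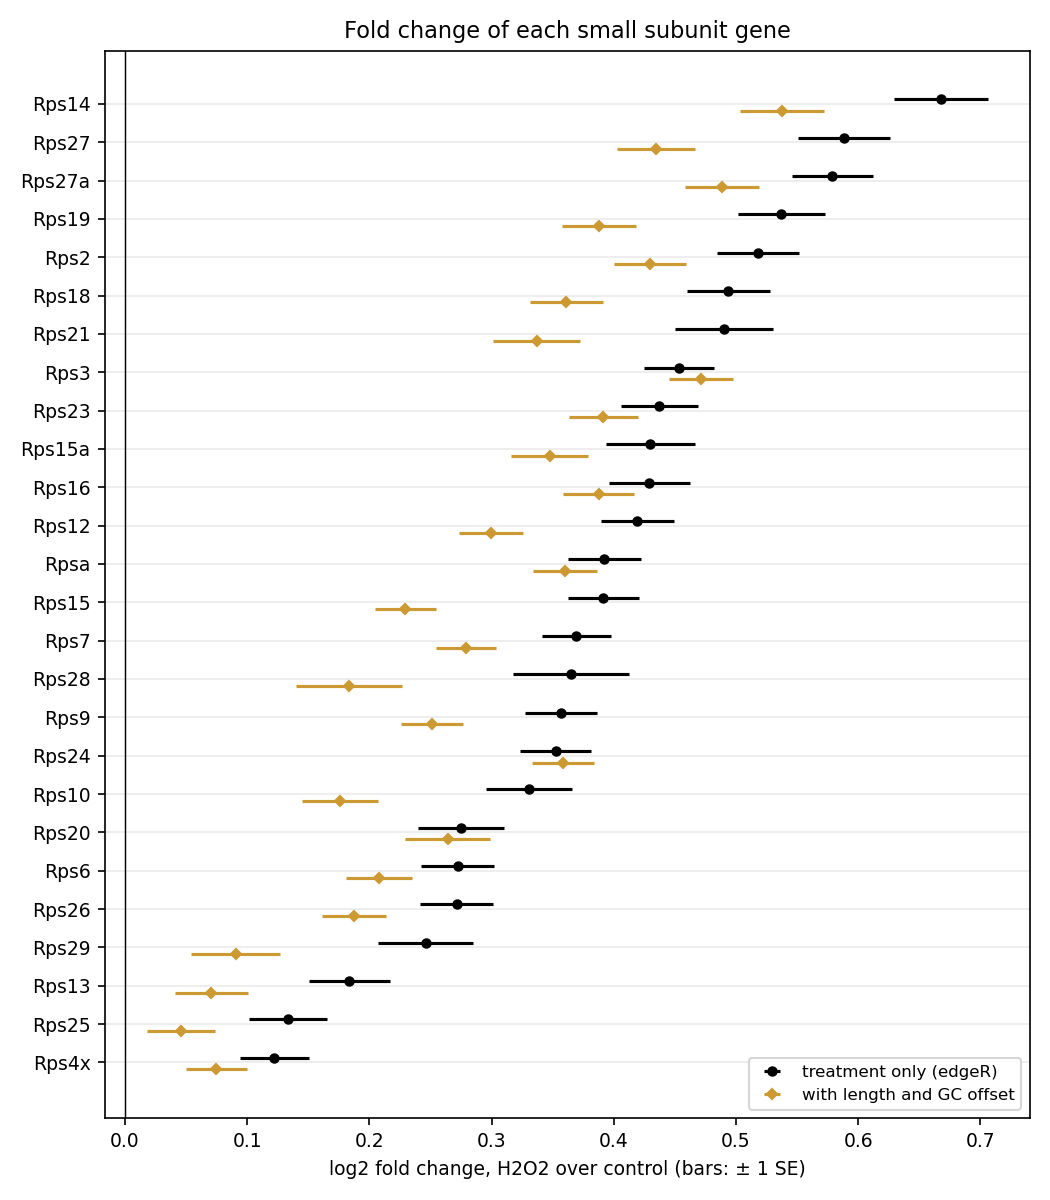
Each row is 1 of 26 small subunit genes, with its log2 fold change (H2O2 over control) and ± 1 SE from the edgeR fit with treatment only (black) and with the length offset (gold). The offset moves Rps14 from 0.67 to 0.54 and Rps25 from 0.13 to 0.05, and every point lies to the right of 0.

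The 3 components of the subunit that the symbol rule left out rose as well. Gnb2l1, which encodes the scaffold Rack1 on the head, had 602, 588 and 594 CPM in controls and 804, 769.7 and 774 CPM with H2O2 (0.40, SE 0.0272, adjusted p = 3.7e-11). Rps3a1, which encodes eS1 of the body, had 529, 519.6 and 539.8 CPM in controls and 637, 625 and 644 CPM with H2O2 (0.26, SE 0.0274, adjusted p = 5.9e-08). Fau, which encodes eS30 fused to a ubiquitin-like protein, rose by 0.25 (SE 0.0337, adjusted p = 4.3e-06), or by 0.09 with the offset. Rps27l, a paralogue of Rps27 and a target of p53, rose by 0.23 (SE 0.0445, adjusted p = 4.8e-04), or by 0.13 with the offset, from 64.5 ± 3.57 to 75.5 ± 3.85 CPM (SD, n = 3). The copies Rps3a2 (0.14) and Rps3a3 (-0.43) had about 1 CPM and did not pass.

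**Figure D5:**
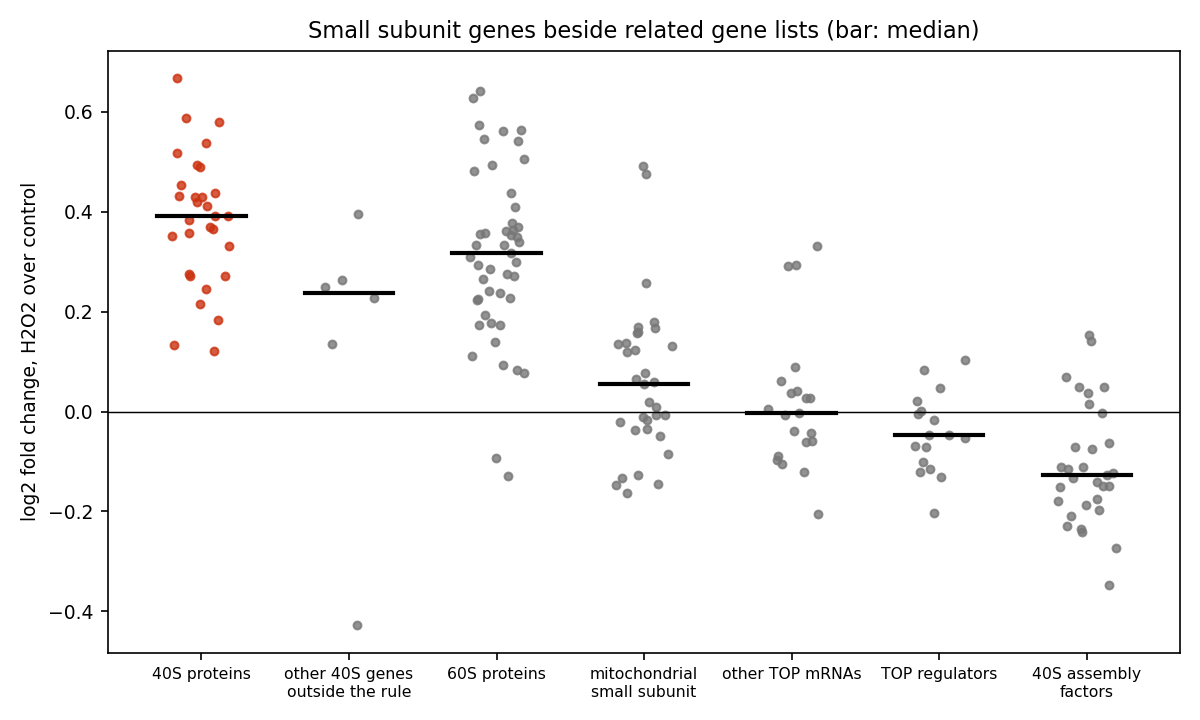
Each point is the log2 fold change (H2O2 over control) of 1 tested gene, grouped by list, with a bar at the list's median. Small subunit genes (red) run from 0.12 to 0.67. The large subunit list has a median of 0.32, the mitochondrial small subunit 0.06, other TOP mRNAs -0.0036, TOP regulators -0.05 and assembly factors of the small subunit -0.13.

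Genes for proteins of the large subunit, whose mRNAs are of the same class, rose in 44 of 47 tested cases and fell in 0. Over all genes tested 9.70% rose and 10.8% fell. The median of the list was 0.32, against 0.39 for the small subunit. The difference between these medians was not tested. In that list 1 gene was lower at an unadjusted p of 0.05, and DESeq2 and limma-voom called 0 lower. With the offset 41 rose, where 9.11% of all genes did, and 1 fell. The largest rises were those of Rpl9 (0.64) and Rpl19 (0.63). Counts on the 30 small subunit genes over counts on the large subunit genes were 0.550, 0.553 and 0.558 in controls (0.554 ± 0.00381, SD, n = 3) and 0.597, 0.588 and 0.589 with H2O2 (0.591 ± 0.00484, SD, n = 3). The ratio was higher in each H2O2 library than in each control. No p is given for this sum over members.

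Genes for the small subunit of the mitochondrial ribosome, which is built from separate nuclear genes, were mixed. Of 33 tested, 9 rose, where 9.70% of all genes did, and 3 fell, near the 10.8% of all genes, with a median of 0.06. The largest rises were those of Chchd1 (0.49) and Mrps24 (0.48), and the largest falls those of Mrps30 (-0.16) and Mrps27 (-0.15). DESeq2 called 2 rises and 0 falls, the offset gave 6 and 4, and leaving out 1 library gave 3 to 7 rises and 0 to 2 falls. Rises numbered 3 without control replicate 2, H2O2 replicate 1 or H2O2 replicate 3, and 5 without control replicate 1 or control replicate 3.

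Other mRNAs known for a TOP sequence went both ways. Of 21 tested, 4 rose and 4 fell, beside 9.70% higher and 10.8% lower over all genes, with a median of -0.0036. The elongation factor subunit Eef1b2 (0.33) and the growth-related protein gene Tpt1 (0.29) rose most, and the elongation factor Eef2 (-0.21) and the nucleolar chaperone Npm1 (-0.11) fell most. Eef2 went from 3946 ± 72.4 to 3423 ± 42.9 CPM (SD, n = 3; adjusted p = 2.3e-06), opposite in direction to every 40S member. With the offset 6 of these genes fell, and 2 fell without control replicate 3 or H2O2 replicate 3.

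Among 17 genes that control TOP mRNAs, 4 fell, where 10.8% of all genes did, and 0 rose (1 higher at an unadjusted p of 0.05, and 0 by DESeq2 and limma-voom). Larp1, the protein that holds TOP mRNAs, fell from 563 ± 3.45 to 489.6 ± 10.9 CPM (-0.20, SE 0.0275, SD over n = 3, adjusted p = 4.5e-06). Tsc2 (-0.13), a brake on mTOR, fell as well, as did the mTOR partners Rptor and Rheb. The falls numbered 2 with the offset or without control replicate 2, and 1 without control replicate 3 or H2O2 replicate 1. Over all genes, 996 of 13084 were called lower without control replicate 3, and 926 of 13096 without H2O2 replicate 1.

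Genes for the factors that assemble the small subunit mostly fell. Of 31 tested, 18 fell, where 10.8% of all genes did, and 1 rose, where 9.70% did. The median was -0.13. Rrp12, an exporter of the nascent subunits, had 73.0, 78.2 and 76.9 CPM in controls and 57.1, 60.1 and 61.9 CPM with H2O2 (-0.35, SE 0.0414, adjusted p = 5.9e-07). Tsr1, a late assembly factor, fell by 0.27 on the log2 scale, and the rRNA methyltransferase gene Emg1 rose by 0.15. Falls numbered 14 to 18 when any 1 library was left out, and 18 with the offset. The rise of Emg1 was lost with the offset and without control replicate 2, and 2 genes of the list rose without H2O2 replicate 2, with upper-quartile factors, with the replicate block and with no filter on low counts.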

How the data were processed

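The 6 libraries, 3 control and 3 H2O2, were sequenced from mRNA, each starting from 100 ng of total RNA. The authors deposited raw counts, a table of gene symbols and whole numbers for each. The build mm10 and the tools STAR 2.5.3, HTSeq, DESeq2, cutadapt and bcl2fastq 2.17.1.14 are named, per the submitters' processing notes, without their roles. The annotation and strand setting are not given in the sources used here. The 5 HTSeq classes, among them no feature (4.76% to 5.46% of reads), entered neither library sizes nor tests.

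The whole table was fitted with edgeR 4.0.16 (R 4.3.3): filterByExpr (12924 genes), TMM factors, a quasi-likelihood test with treatment as the only term, and Benjamini-Hochberg adjustment over all genes tested, threshold 0.05. SE are from that fit. The methods were tested on simulated data. Alternatives were other scaling factors, DESeq2 1.42.0, limma-voom (limma 3.58.1), other filters, the replicate block, a loess offset (span 0.3) for transcript length and GC content fitted on genes outside the lists, and fits without each library. Lengths are those of the shortest principal GENCODE M21 transcript, or of the longest in the basic set where none is principal. A length was found for 99.1% of tested genes.

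The members and gene lists were chosen with earlier results of these data known. By rule, values in every library are given for the 6 largest and 4 smallest changes, the 3 highest and 3 lowest levels per coding kilobase, and members whose call changed; of other lists, the largest passing changes. Some members count in every total but are not reported here singly, in the text or in the plots by gene.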

Additional observations from a re-analysis of the deposited data

How the results depend on the processing

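All 30 members were higher in every one of the 17 alternative fits, and 27 of them were called higher in each. Of 510 recomputed fold changes of single members, 503 kept their direction and their side of the threshold, 7 lost the call and 0 reversed. The losses were those of Rps13, Rps25 and Rps29 with the length and GC offset, with and without the replicate block, and of Rps25 without control replicate 2. The number called higher was 30 with each other scaling factor, test and filter, 27 with the offset, and 29 to 30 over the fits that left out 1 library. The median log2 fold change was 0.40 with DESeq2's size factors, 0.40 with upper-quartile factors, 0.38 to 0.42 over the fits that left out 1 library, and 0.30 with the offset, also 0.30 with the offset and the replicate block. The offset removes the trend of fold change over length and GC content by construction.

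The replicate block alone gave 30 members higher and a median of 0.39. Deviations of same-numbered libraries from their group means had correlations of 0.002, 0.03 and -0.026 over all tested genes, and not every library correlated best with its own number, so the numbers were not taken to pair the libraries. The block moved the genes called higher over the whole table from 1254 to 1294. Genes called lower over the whole table numbered 1395. Over the fits that left out 1 library, 926 to 1313 genes were called lower and 891 to 1178 higher. These fits tested 13071 to 13096 genes, and the counts of the gene lists without 1 library belong beside them. What depth contributed to the errors was not tested. The member with the fewest reads was Rps21, at 83.6 to 131 CPM.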
